A study of Mus musculus with 7 samples.

Results

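The genes of the NKR-P1 receptors and of KLRG1 were followed in splenic T cells of the mouse, across 7 libraries of single-cell RNA. The 5 genes, Klrb1a, Klrb1b, Klrb1c, Klrb1f and Klrg1, were taken by symbol from the 27514 genes that all 7 count matrices share, and all 5 had a row in each matrix. The study compared TCRαβ+ double negative T (DNT) cells, which carry an αβ T cell receptor but neither CD4 nor CD8, before and after activation and beside CD4, CD8 and unfractionated TCRαβ+ T cells. All cells came from spleens of 8-week-old male C57BL/6 mice, and each library was made with a Chromium 3′ kit, which counts unique molecular identifiers (UMIs) at the 3′ ends of polyadenylated RNA. The labels do not say how many mice were pooled for a library.

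Activated DNT cells (2 libraries) were derived from naive ones by a 3-day stimulation in culture, with antibodies to CD3 and CD28 plus IL-2 at 20 ng/ml. Naive DNT cells (2 libraries) were sorted as CD3+, TCRαβ+, negative for NK1.1, TCRγδ, CD4 and CD8, and unstained by CD1d loaded with aGal or LPC, the reagents that bind natural killer T (NKT) cells. The CD4, CD8 and TCRab populations (1 library each) shared the CD3+, NK1.1−, TCRαβ+ and TCRγδ− gate, with CD4+ CD8−, CD4− CD8+ or no further selection. Every population had thus been depleted of cells staining for NK1.1, the protein of Klrb1c. No DNT culture without stimulation was part of the design, so effects of activation and of culture cannot be told apart. Replicate 1 of both DNT groups and the 3 single libraries used kit v2, whereas replicate 2 of both DNT groups used kit v3.

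The NKR-P1 proteins are C-type lectin-like receptors of natural killer (NK) cells and some T cells, encoded together in the NK gene complex. NKR-P1C (Klrb1c), the NK1.1 antigen of C57BL/6 mice, signals through the adaptor FcRγ (Fcer1g) and activates, and NKR-P1A (Klrb1a) and NKR-P1F (Klrb1f) are also classed as activating. NKR-P1B (Klrb1b) inhibits through the phosphatase SHP-1 (Ptpn6) when it meets Clr-b, the product of Clec2d, and NKR-P1F binds other Clr proteins, among them Clr-g (Clec2i). KLRG1 is an inhibitory receptor for cadherins that marks terminally differentiated effector CD8 T cells, NK cells and a subset of regulatory T cells.

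All 5 genes lie on chromosome 6 in the GENCODE vM21 annotation of GRCm38. Klrg1 lies at chr6:122270596-122282882 on the minus strand, 6326344 bases before the first Klrb1 gene. Klrb1a (chr6:128609227-128623533), Klrb1c (chr6:128778485-128789215) and Klrb1b (chr6:128813706-128826331) are on the minus strand, and Klrb1f (chr6:129045901-129057464) is on the plus strand. These 4 genes span 448238 bases, and 2 ligand genes sit beside them, Clec2i between Klrb1b and Klrb1f and Clec2d beyond Klrb1f.

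The promoters of the 4 Klrb1 genes are given because Klrb1a and Klrb1c had the highest naive DNT levels of the 5 genes and Klrb1b and Klrb1f lower ones. The windows run from 250 bases before to 50 bases after the transcription start and come from RefSeq on GRCm38.p6. Capitals mark matches on either strand to the RUNX motif TGTGGT or the ETS motif GGAAGT, whose reverse complement reads ACTTCC.
Klrb1a, chr6:128622885-128623184, minus strand: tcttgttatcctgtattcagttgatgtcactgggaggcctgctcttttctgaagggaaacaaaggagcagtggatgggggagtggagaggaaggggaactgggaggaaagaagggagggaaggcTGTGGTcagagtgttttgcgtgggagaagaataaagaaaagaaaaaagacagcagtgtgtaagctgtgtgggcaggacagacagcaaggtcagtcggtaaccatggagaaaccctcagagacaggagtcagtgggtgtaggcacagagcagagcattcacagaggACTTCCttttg
Klrb1c, chr6:128788592-128788891, minus strand: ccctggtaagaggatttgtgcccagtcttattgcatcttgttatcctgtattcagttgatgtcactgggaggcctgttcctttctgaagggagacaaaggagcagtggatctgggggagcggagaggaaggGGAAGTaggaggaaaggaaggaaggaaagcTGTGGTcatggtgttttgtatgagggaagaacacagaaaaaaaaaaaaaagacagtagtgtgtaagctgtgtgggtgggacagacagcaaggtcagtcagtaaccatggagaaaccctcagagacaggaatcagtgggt
Klrb1b, chr6:128826266-128826565, minus strand: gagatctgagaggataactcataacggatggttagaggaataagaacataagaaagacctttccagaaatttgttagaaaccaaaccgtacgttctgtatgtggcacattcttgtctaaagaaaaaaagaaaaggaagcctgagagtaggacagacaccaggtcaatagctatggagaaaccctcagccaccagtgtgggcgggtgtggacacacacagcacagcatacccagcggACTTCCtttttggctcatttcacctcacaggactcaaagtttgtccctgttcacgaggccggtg
Klrb1f, chr6:129045651-129045950, plus strand: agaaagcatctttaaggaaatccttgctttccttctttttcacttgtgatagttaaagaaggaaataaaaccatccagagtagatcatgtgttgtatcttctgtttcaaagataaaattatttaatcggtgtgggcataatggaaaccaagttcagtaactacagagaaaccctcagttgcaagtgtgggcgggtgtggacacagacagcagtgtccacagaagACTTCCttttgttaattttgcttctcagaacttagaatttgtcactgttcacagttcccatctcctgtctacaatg

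The Klrb1a and Klrb1c windows were near copies of each other, identical at 236 of 260 aligned bases (90.8%). The other local alignments were short: Klrb1a with Klrb1b covered 97 bases (80.4% identical), and Klrb1b with Klrb1f covered 112 bases (80.4% identical). The RUNX motif occurred once in the Klrb1a window and once in the Klrb1c window and not in the Klrb1b and Klrb1f windows, and 16.8% of the 32851 RefSeq promoter windows held it. The ETS motif occurred once in each of the 4 windows and in 23.8% of all windows. The T-box motif TCACACC was in none of the 4 and in 3.98% of all windows. These matches are letters in a window and not measured binding sites. Reads at the 3′ end could mostly be told apart, since 18 of 1406 stretches of 91 bases in the ends of Klrb1a transcripts (1.28%) also occur in Klrb1c and none of the ends of Klrb1b, Klrb1f or Klrg1 were shared among the 5 genes.

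The libraries held 1549 to 6728 cells after filtering and 17255173 to 53342795 UMIs over the shared genes. Median UMIs per cell were 15724 and 9347 in activated DNT replicates 1 and 2, 4090 and 7511 in naive DNT replicates 1 and 2, and 3966 to 4877 in the other 3 libraries. Cd4 stayed at or below 0.204 CPM (UMIs of a gene scaled to a common library total) in the DNT libraries, against 137 CPM in the CD4 library, and Cd8a at or below 3.49 CPM, against 492 CPM in the CD8 library. Cells with at least 2 UMI-positive B cell, myeloid or red cell markers made up 27.5% and 3.34% of naive DNT replicates 1 and 2, and 0.168% to 10.2% of the other libraries. Any 2 libraries shared 0 to 36 cell barcodes. Levels below are CPM of UMIs summed over a library. In them, fewer expressing cells, less RNA per cell and a larger total of other RNA cannot be told apart. Their intervals are exact 95% intervals that cover counting error only.

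Klrb1a and Klrb1c were highest in naive DNT cells, where Klrb1f and Klrb1b followed at lower levels, and Klrg1 was highest in CD4, TCRab and CD8. Klrb1a RNA stood at 1.69 and 7.14 CPM in activated DNT replicates 1 and 2, against 12.7 and 11.8 CPM in naive DNT replicates 1 and 2. It was almost missing from the other populations, with 0.0461 CPM in CD4 (1 UMI), 0.125 CPM in CD8 (3 UMIs) and 0.383 CPM in TCRab (7 UMIs). Both naive DNT values lay above both activated values, and all 4 DNT values lay above the other 3 populations.

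Klrb1c RNA stood at 0.407 and 3.41 CPM in activated DNT cells, against 13.5 and 12.7 CPM in naive DNT cells. The other populations had 0.277 CPM in CD4 (6 UMIs), 0.916 CPM in CD8 (22 UMIs) and 0.493 CPM in TCRab (9 UMIs). The naive DNT cells, although sorted as negative for the NK1.1 protein, thus held the highest Klrb1c RNA level of the 5 populations, and activated replicate 1 overlapped with the unactivated CD4, CD8 and TCRab libraries. In activated replicate 2, 1 cell held 28 of the 86 Klrb1c UMIs, and the level was 2.30 CPM without it.

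Klrb1f RNA stood at 1.25 and 0.714 CPM in activated DNT cells, against 2.49 and 5.47 CPM in naive DNT cells, and at 0.415, 0.541 and 0.328 CPM in CD4, CD8 and TCRab. The 2 naive libraries differed by more for Klrb1f than for Klrb1a or Klrb1c, and both lay above all other libraries. Klrb1b was the rarest member, with 0.0291 and 0.515 CPM in activated DNT cells, 0.869 and 1.76 CPM in naive DNT cells, 0 UMIs in CD4 and in CD8, and 1 UMI in TCRab. The 0 counts allow a share of Klrb1b-positive cells of up to 0.0596% in CD4 and 0.0644% in CD8, against 0.198% and 0.669% of naive DNT cells.

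Klrg1 RNA stood at 0.0582 and 0.0793 CPM in activated DNT cells (2 UMIs in each library), against 2.96 and 1.54 CPM in naive DNT cells. It was highest in CD4 at 6.28 CPM (5.27 to 7.42), then in TCRab at 5.80 CPM (4.75 to 7.02) and in CD8 at 4.41 CPM (3.61 to 5.34). Neighbours in that order had overlapping counting intervals, as did CD8 and naive DNT replicate 1 at 2.96 CPM (2.20 to 3.89). All 3 CD4 and CD8 containing libraries lay above both naive DNT libraries, and both activated libraries lay below them.

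**Figure D1:**
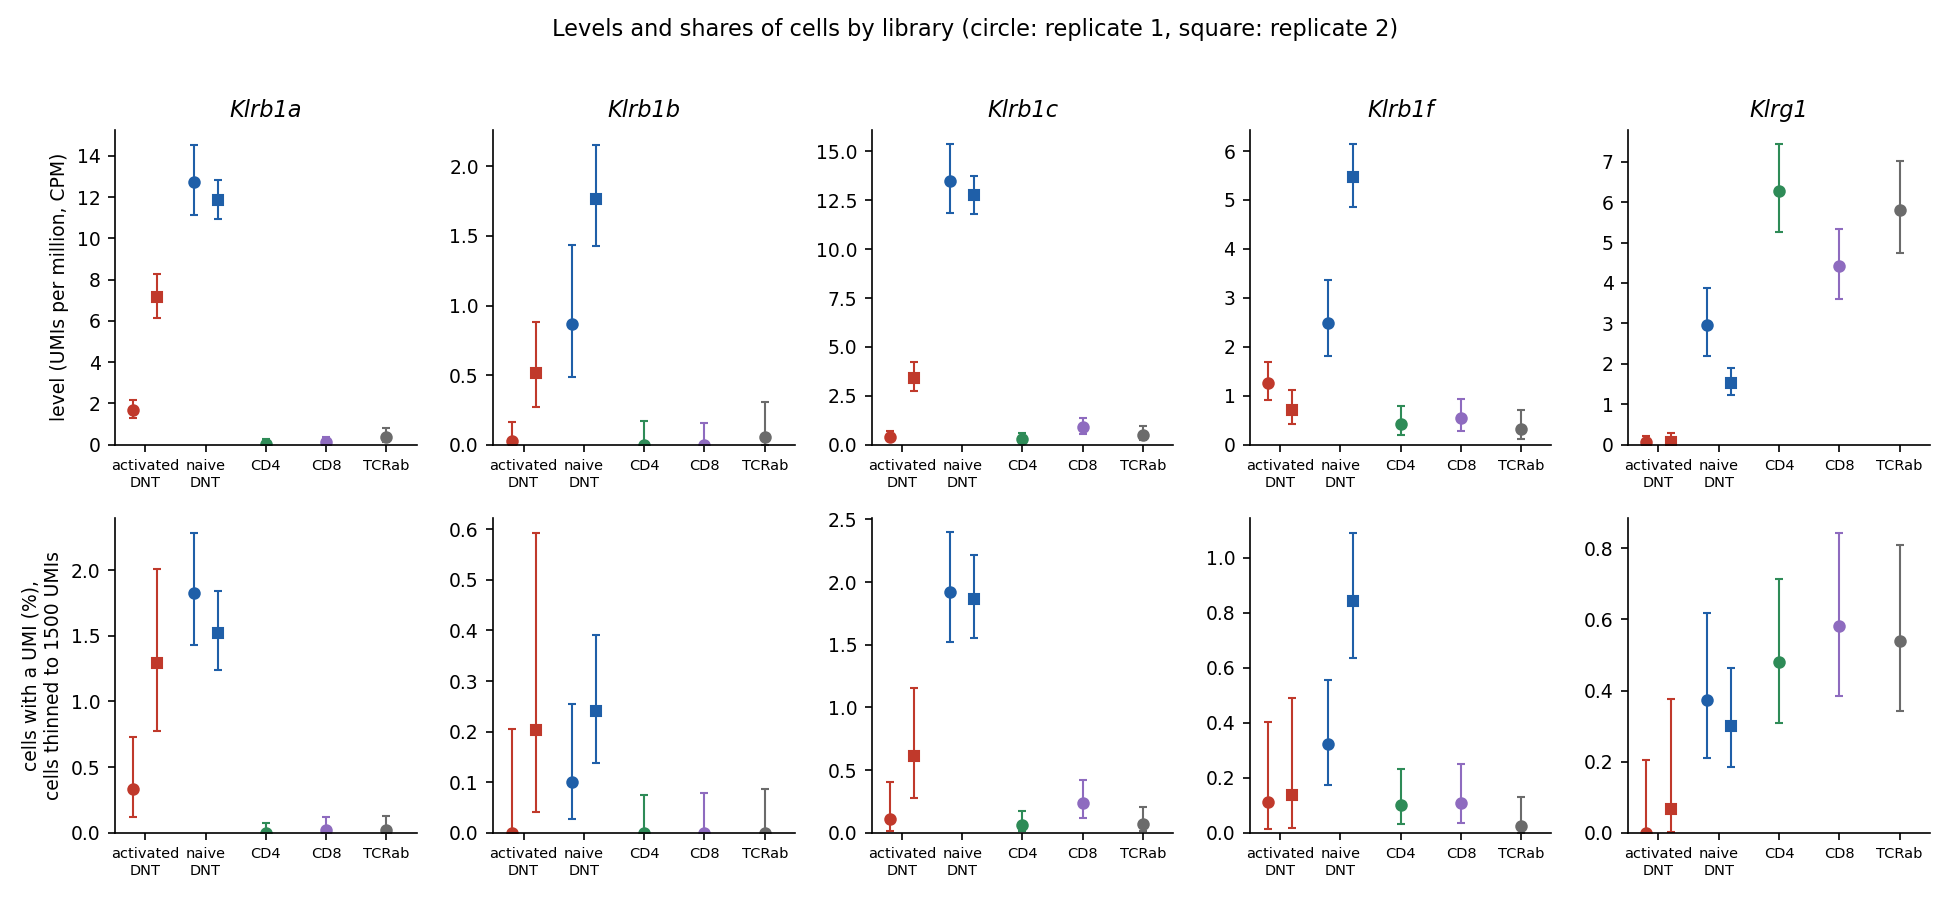
Upper row, level of each of the 5 genes in every library, in CPM over the shared genes; lower row, percent of cells with a UMI of the gene after thinning to 1500 UMIs; bars are exact 95% counting intervals, circles are replicate 1 or the single library and squares replicate 2. Klrb1a and Klrb1c reach 11.8 to 13.5 CPM in the naive DNT libraries, and Klrg1 reaches 4.41 to 6.28 CPM in CD4, CD8 and TCRab.

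Only a small share of cells held a UMI of any member. At full depth, Klrb1c was seen in 0.503% and 1.87% of activated DNT cells, in 4.84% and 7.16% of naive DNT cells, and in 0.0993%, 0.430% and 0.210% of CD4, CD8 and TCRab cells. Klrb1a was seen in 2.46% and 5.62% of activated and in 3.70% and 5.01% of naive DNT cells, so at full depth the 2 groups overlapped. Klrb1f was seen in 1.34% and 0.904% of activated and in 1.01% and 3.39% of naive DNT cells. Any of the 4 Klrb1 genes was seen in 4.30% and 7.81% of activated DNT cells, in 8.99% and 14.7% of naive DNT cells, and in 0.258%, 0.709% and 0.442% of CD4, CD8 and TCRab cells.

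Cells differed in depth, so each was also thinned to 1500 UMIs, which left out 0 and 75 activated, 43 and 80 naive DNT and 10 to 38 other cells per library. Klrb1a was then seen in 0.335% and 1.29% of activated DNT cells, below the 1.82% and 1.52% of naive DNT cells. Thinned Klrb1c shares were 0.112% and 0.611% in activated and 1.92% and 1.87% in naive DNT cells, so in neither gene did the thinned groups overlap, while at full depth those of Klrb1a did. Klrg1 was seen in 0.716% and 0.713% of naive DNT cells at full depth, against 0.993%, 1.01% and 0.978% of CD4, CD8 and TCRab cells, and in 2 cells of each activated library. As a measure of free RNA, the 71 naive DNT replicate 2 cells with B cell markers and no CD3 UMI (median 4838 UMIs per cell, against 7511 in all cells of that library) held no UMI of any member. The exact 95% interval of 0 in 71 cells reaches 5.06%. In that library the Klrb1c share of 7.16% at full depth lies above 5.06%. Those of the other 4 genes, with Klrb1a at 5.01%, are below it. The 71 cells were shallower than the library as a whole, so their limit and these shares are not at matched depth. The 71 cells are too few and too shallow to tell any member, Klrb1c included, from free RNA. The class without CD3 UMIs was chosen after seeing the data. Among all 137 cells of that library with B cell markers, with or without CD3, 5 held Klrb1a and 1 Klrb1b. Of the same 137 cells, 2 held Klrb1c, 3 Klrb1f and 1 Klrg1. The part of free RNA in the shares was not tested.

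Positive cells held few UMIs of a member. Klrb1a-positive cells held on average 1.32 and 2.07 Klrb1a UMIs in activated and 1.47 and 1.88 in naive DNT libraries. Klrg1-positive cells held 1.76 and 1.71 Klrg1 UMIs in naive DNT cells, against 2.72 in CD4, 2.26 in CD8 and 2.52 in TCRab cells. The highest single cells held 14, 10 and 18 Klrg1 UMIs in CD4, CD8 and TCRab.

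The first comparison set naive DNT cells against the other sorted populations, each of which is 1 library, so it has no test. Klrb1a and Klrb1c were higher in naive DNT cells than in all 3 populations by 13.9-fold or more, Klrb1f was several fold higher, and Klrg1 was lower. Klrb1a in naive DNT replicates 1 and 2 was 276-fold (49.1 to 10962) and 257-fold (45.9 to 10157) the CD4 level, 102-fold and 94.9-fold the CD8 level, and 33.3-fold and 30.9-fold the TCRab level. Klrb1c was 48.8-fold (22.1 to 134) and 46.0-fold (21.0 to 126) the CD4 level, 14.7-fold and 13.9-fold the CD8 level, and 27.4-fold and 25.9-fold the TCRab level. The wide intervals for Klrb1a come with the 1, 3 and 7 UMIs it had in CD4, CD8 and TCRab.

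Klrb1f was 6.00-fold and 13.2-fold its CD4 level, 4.60-fold and 10.1-fold its CD8 level and 7.59-fold and 16.7-fold its TCRab level in naive DNT replicates 1 and 2. Klrb1b was at least 6.28-fold and 12.7-fold higher than in CD4 and at least 6.96-fold and 14.1-fold higher than in CD8, taking 3 UMIs per library as the floor for a count of 0. The exact 95% lower limits of these ratios, which also count the error of the naive DNT UMIs, were 4.505 and 10.2 for CD4 and 4.99 and 11.2 for CD8. Klrg1 reached 0.471 (0.334 to 0.654) and 0.245 (0.184 to 0.325) of its CD4 level, 0.670 and 0.348 of its CD8 level, and 0.509 and 0.265 of its TCRab level.

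By a rule that asked for a 2-fold difference from each naive DNT library and a minimum of 5 CPM wherever the level was the higher one, 2 of the 5 genes, Klrb1a and Klrb1c, were higher in naive DNT cells than in each of the 3 populations. The same rule named 6.77% of 7812 genes as higher against CD4, 6.00% of 7699 against CD8 and 5.25% of 7836 against TCRab. Klrg1 was lower than in CD4 by the rule, where 1.55% of genes were lower. With cells thinned to 1500 UMIs its log2 ratio to CD4 (0.5 CPM added) was −0.58, under 2-fold, in place of −1.35. It was lower than in neither CD8 nor TCRab by the rule, for which 0.649% and 1.39% of genes were lower. Klrg1 just missed against TCRab, whose level was 1.96-fold and 3.77-fold that of naive DNT replicates 1 and 2, and it had under 5 CPM in CD8. Klrb1b and Klrb1f did not reach 5 CPM in both naive DNT libraries. With a minimum of 20 CPM none of the 5 genes could pass, and with 3-fold Klrg1 no longer did.

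The adaptors, phosphatases and ligands that these receptors use were measured in the same libraries. Fcer1g, the adaptor of NKR-P1C, had 139 and 232 CPM in activated and 357 and 214 CPM in naive DNT cells, against 11.4, 6.20 and 17.9 CPM in CD4, CD8 and TCRab. Clec2d, encoding the NKR-P1B ligand Clr-b, had 35.9 and 96.9 CPM in activated and 73.8 and 85.0 CPM in naive DNT cells, against 84.8, 72.2 and 82.5 CPM in CD4, CD8 and TCRab. Clec2i, encoding Clr-g, had 13.7 and 64.6 CPM in activated and 50.01 and 88.0 CPM in naive DNT cells, against 35.9, 38.5 and 38.8 CPM in CD4, CD8 and TCRab. Ligand RNA was thus present in all 5 populations, whereas Fcer1g was high in the DNT libraries alone. The summed level of the cadherin genes Cdh1, Cdh2 and Cdh4, which encode KLRG1 ligands, was at most 0.872 CPM in any library.

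As shares of all UMIs, all 5 genes were lower in activated than in naive DNT cells. Only the decrease of Klrg1 passed the test. Median UMIs per cell were higher in activated cells, so a lower share need not mean less RNA per cell. Klrb1f had 43 UMIs in 1791 activated and 43 in 4049 naive cells of replicate 1. In replicate 2 it had 18 in 1549 activated and 292 in 6728 naive cells. Klrb1a had 58 and 220 UMIs in the same cells of replicate 1, and 180 and 632 in those of replicate 2. By edgeR's quasi-likelihood test over 12325 genes, with Benjamini-Hochberg adjustment, Klrg1 fell, with a log2 fold change of −5.20 ± 0.90 (SE; 2 against 2 libraries) and an adjusted p of 0.0175. Its level was 0.0197 (0.00232 to 0.0749) of the naive level in replicate 1 and 0.0516 (0.00614 to 0.192) in replicate 2. This 1 of 5 genes is set against a background of 5.06% of tested genes lower and 5.32% higher in activated cells, with a median log2 fold change of −0.05 over all genes. The Klrg1 call was lost without naive DNT replicate 1 (log2 fold change −4.28, adjusted p = 0.0825) and with cells thinned to 1500 UMIs (−3.83, adjusted p = 0.134).

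The 4 Klrb1 genes pointed the same way without passing the edgeR test. The log2 fold change was −3.13 ± 0.84 for Klrb1c (adjusted p = 0.0655), −1.99 ± 0.63 for Klrb1f (0.0878), −1.79 ± 0.60 for Klrb1a (0.101) and −2.54 ± 1.01 for Klrb1b (0.150). Replicates differed in size: the activated Klrb1c level was 0.0302 (0.0162 to 0.0517) of the naive level in replicate 1 and 0.267 (0.211 to 0.335) in replicate 2, and that of Klrb1a was 0.132 and 0.602. Klrb1f had the reverse order, with 0.502 in replicate 1 and 0.130 in replicate 2. With the replicate number, which is also the kit version, as a block, edgeR's adjusted p was 0.0130 for Klrb1f and 0.0181 for Klrb1b, which then passed, 0.000418 for Klrg1, 0.0537 for Klrb1a and 0.0644 for Klrb1c. Without the 1 activated cell that held 28 Klrb1c UMIs, a setting chosen after seeing the data, Klrb1c had a log2 fold change of −3.60 and an adjusted p of 0.0260 by the edgeR test. Leaving out activated DNT replicate 2 also gave calls by edgeR, with log2 fold changes of −2.77 for Klrb1a, −5.18 for Klrb1b and −4.91 for Klrb1c, as did leaving out activated replicate 1 for Klrb1c (−2.33) and Klrb1f (−2.75). DESeq2 called Klrb1a, Klrb1c, Klrb1f and Klrg1. All 5 genes kept a negative fold change in each of the 12 or 13 alternative settings that gave a value.

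**Figure D2:**
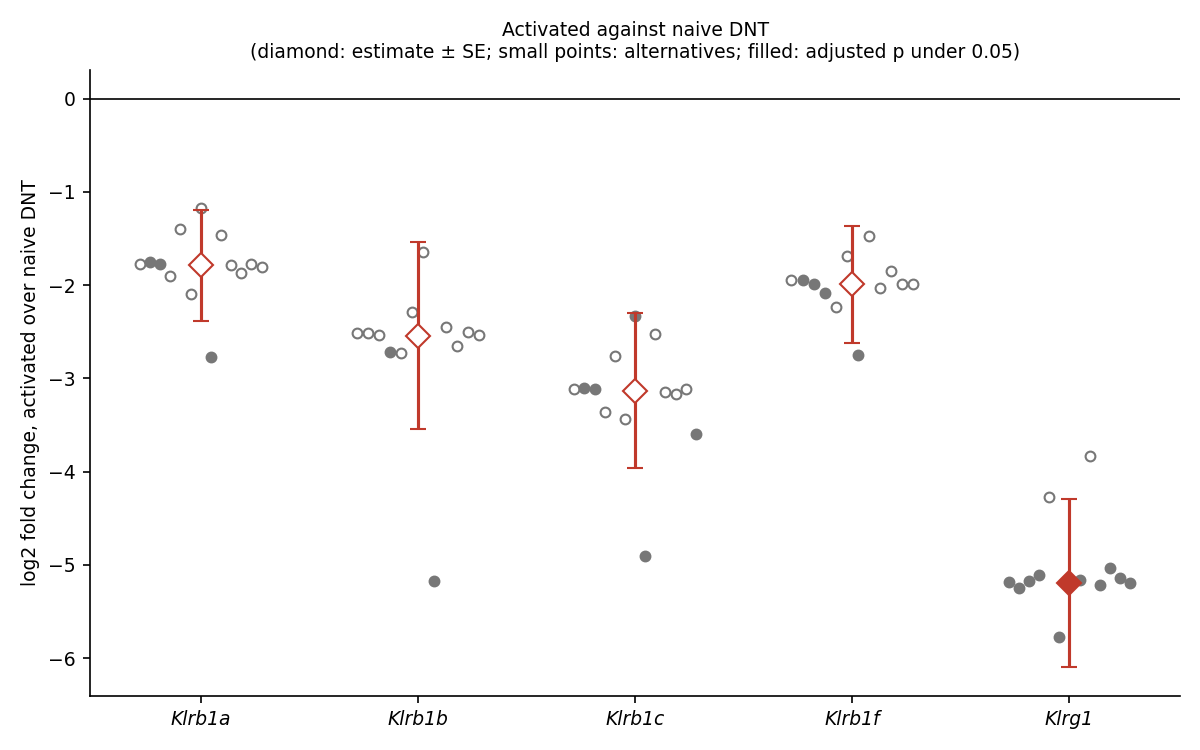
Log2 fold change of each of the 5 genes in activated over naive DNT cells as diamonds with the standard error of the edgeR fit, and the same value under each alternative setting as small points, filled where the adjusted p was under 0.05. Every point lies below 0, and the diamond of Klrg1, at −5.20, is the filled one of the 5.

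Genes of related programmes did not all move the way of the 5 receptors. Of 8 signalling genes, Syk (log2 fold change −5.32) and Tyrobp (−4.01), a kinase and an adaptor of activating NK receptors, fell and none rose, while Fcer1g had −0.89 (adjusted p = 0.344 by the edgeR test). Syk is also expressed by B and myeloid cells and Tyrobp by myeloid cells, and the summed levels of 8 myeloid markers were 1.51 and 65.7 CPM in activated, against 1752 and 121 CPM in naive DNT cells. Those of 6 B cell markers were 9.92 and 13.4 CPM in activated, against 26.5 and 106 CPM in naive DNT cells, and those of 5 red cell markers 0 and 0.436 CPM, against 3697 and 819 CPM. C1qa and C1qb were at 0 in both activated libraries, and the part of these cells in the result was not tested. Of 10 terminal effector genes, Gzmb (7.30), encoding granzyme B, and Zeb2 (1.94), a transcription factor of terminal effector cells, rose, and the chemokine gene Ccl5 (−4.61) and the receptor gene Cx3cr1 (−3.95) fell. Gzmb had 2113 and 3372 CPM in activated and 10.7 and 21.7 CPM in naive DNT cells. Of 6 memory and naive genes, Lef1 (−2.23), a transcription factor of naive T cells, fell. None of 5 type 17 genes passed the edgeR test, and Il17a (5.57) narrowly missed with an adjusted p of 0.0553. Il17a had 302 and 352 CPM in activated and 0.637 and 14.0 CPM in naive DNT cells. Il4 (3.80) was the 1 of 2 PLZF-type genes that rose, and neither Clec2d (−0.50) nor Clec2i (−1.05) passed. With the block, the counts were 1 higher and 4 lower in signalling, 2 higher and 3 lower in terminal effector, where S1pr5 was gained, 4 lower in memory and naive, 1 higher and 2 lower in type 17, and Clec2i was lower. The median log2 fold change was −1.07 for the signalling list, −0.33 for terminal effector and −1.57 for memory and naive, against −0.05 for all tested genes.

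Naive DNT cells with a UMI of Klrb1a (150 and 337 cells in replicates 1 and 2) were next compared with the other cells of the same libraries, with UMIs summed per library and the library as a block. Klrb1a-positive cells carried more Fcer1g, Klrb1, Klrb1c and Klrb1f RNA and less RNA of the 5 type 17 genes, of Il4 and Zbtb16 and of Ccr7, the receptor for lymph node homing. Of 10879 genes, 4.87% were higher and 7.99% lower in positive cells by edgeR's quasi-likelihood test. The other members are set against these shares: Klrb1c and Klrb1f were higher, and Klrb1b and Klrg1 did not pass. Positive and negative cells of 1 library share their source, and the 2 pairs leave 1 residual degree of freedom. With no library block no gene passed, and with DESeq2 457 genes passed, against 1399 by edgeR.

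Klrb1c had 41.2 and 23.9 CPM in Klrb1a-positive cells of replicates 1 and 2, against 12.5 and 12.1 CPM in negative cells (log2 fold change 0.97, adjusted p = 1.64e-05 by edgeR and 0.0970 by DESeq2). Klrb1f had 6.33 and 12.1 CPM in positive and 2.35 and 5.09 CPM in negative cells (1.07, adjusted p = 0.0149 by edgeR, 0.974 by DESeq2). It lost its call without cells holding a UMI of the NK cell gene Ncr1 (0.83, adjusted p = 0.123 by edgeR), a setting added after seeing the data. Klrb1, a family gene between Klrb1a and Klrb1c on the chromosome that is not among the 5, had 14.3 and 18.0 CPM in positive and 0.722 and 0.852 CPM in negative cells (4.15, adjusted p = 1.22e-20 by edgeR). With cells thinned to 1500 UMIs none of the 3 passed by edgeR, with log2 fold changes of 2.04 for Klrb1 (adjusted p = 0.813), 0.16 for Klrb1c (0.999) and 2.21 for Klrb1f (0.434).

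Ordered by fold change, the 10 leading genes higher in Klrb1a-positive cells included muscle and nerve genes. These were Tnni1 (log2 fold change 5.12) and Capn3 (3.08), known from muscle as troponin I and calpain 3, Myl1 (4.10), a myosin light chain, Nrgn (3.95), encoding neurogranin, Trpm1 (3.53), an ion channel gene, and Scimp (2.93), Tmem158 (2.75), Cd244 (2.74), Gstm1 (2.65) and Pdcd1 (2.55). Cd244 encodes the NK receptor 2B4 and Pdcd1 the inhibitory receptor PD-1. Tnni1 had 111 and 132 CPM in Klrb1a-positive and 3.61 and 2.87 CPM in negative cells, and Myl1 had 263 and 154 CPM in positive and 14.4 and 6.96 CPM in negative cells. Tnni1, Myl1, Nrgn and Trpm1 also passed with cells thinned to 1500 UMIs, and the other 6 did not. The 5 leading lower genes, Hba-a1 (−5.73), Hba-a2, Hbb-bt, S100a8 and Hbb-bs, are red cell and neutrophil genes. None of these 5 passed without the cells that carry B cell, myeloid or red cell markers, where edgeR's adjusted p ran from 0.170 to 0.839.

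Of 8 signalling genes, Fcer1g (log2 fold change 1.44) and Ptpn6 (0.97), encoding SHP-1, were higher, and the kinase gene Lck (−0.29) was called lower by edgeR. In CPM, Lck was not lower in positive cells of replicate 1 (594 against 575) and was slightly lower in replicate 2 (428 against 461). It lost the edgeR call with thinned cells (adjusted p = 0.855) and for at least 2 Klrb1a UMIs (0.388). Tyrobp (0.98, adjusted p = 0.782 by edgeR) did not pass. By edgeR it passed without cells carrying B cell, myeloid or red cell markers (2.26, 7.08e-33) and for at least 2 Klrb1a UMIs (1.18, 0.00138). It did not pass by DESeq2, with thinned cells or without Ncr1-positive cells. Fcer1g had 966 and 671 CPM in Klrb1a-positive and 334 and 188 CPM in negative cells. Fcer1g was seen in 86.0% and 84.0% of Klrb1a-positive cells, against 47.5% and 39.8% of negative cells. All 5 type 17 genes were lower, led by Il17re (−3.13), Ccr6 (−3.0) and Blk (−2.01), genes of an IL-17 receptor subunit, a homing receptor and a kinase. The median over the list was −2.01, against −0.03 for all genes tested. Blk had 1.58 and 10.0 CPM in positive and 9.87 and 34.5 CPM in negative cells. By DESeq2 only Blk and Ccr6 of the 5 passed. With thinned cells Il17a and Il23r were not tested, and Blk (−9.45, adjusted p = 0.0523 by edgeR), Ccr6 (−8.41, 0.537) and Il17re (−8.18, 0.626) kept a negative fold change without passing. Both PLZF-type genes, Il4 (−2.33) and Zbtb16 (−1.03), were lower by edgeR and not by DESeq2. Of 6 memory and naive genes, Ccr7 (−2.70) and Il7r (−0.82) were lower and Id3 (0.79) was higher, and of 9 terminal effector genes tested only Ccl5 (−0.41) was lower. Without Ncr1-positive cells, 5 of 337 positive cells in replicate 2, Gzma (−4.001), Gzmb (−1.82), Prf1 (−1.27) and Zeb2 (−1.27) were also called lower by edgeR.

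Klrb1a-positive activated cells (44 and 87 cells) were too few for a test. Fcer1g was seen in 93.2% and 96.6% of them, against 55.9% and 48.7% of negative activated cells, and Klrb1 in 6.82% and 6.90%, against 0.458% and 0.547%. These positive cells were also deeper, with medians of 20723 and 26951 UMIs, against 15649 and 9131.5 in negative cells. With cells thinned to 3000 UMIs, Fcer1g was seen in 90.9% and 90.6% of 11 and 32 Klrb1a-positive activated cells, against 28.4% and 34.2% of negative ones. For Klrb1 the part of depth was not tested.

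By edgeR, Klrb1c-positive naive DNT cells (196 and 482 cells) had more RNA of Klrb1a, Klrb1f, Fcer1g and 5 terminal effector genes than the other cells. They had less of Ccr7, and several of these calls were lost with thinned cells. Of 10849 genes, 0.479% were higher and 1.20% lower by edgeR's quasi-likelihood test, a smaller number than for Klrb1a (difference between the 2 counts not tested). Among the members, Klrb1f was higher, with 7.90 and 12.1 CPM in Klrb1c-positive and 2.20 and 4.91 CPM in negative cells (log2 fold change 1.36, adjusted p = 1.67e-05 by edgeR, not called by DESeq2). Klrb1a was higher too, with 31.6 and 18.7 CPM in positive and 11.7 and 11.3 CPM in negative cells (0.92, adjusted p = 0.000507 by edgeR, 0.877 by DESeq2). With cells thinned to 1500 UMIs neither passed by edgeR, with log2 fold changes of 1.10 for Klrb1f and −0.02 for Klrb1a (adjusted p = 0.998 for both). Klrg1 had 5.64 and 4.25 CPM in positive and 2.81 and 1.30 CPM in negative cells (1.48, adjusted p = 0.0647 by edgeR), and Klrb1b did not pass. With no library block no gene passed here either. Without cells carrying B cell, myeloid or red cell markers the count was 113 in place of 182, not all of them the same genes. Klrg1 passed in that setting (1.83, adjusted p = 0.0327 by edgeR) and for at least 2 Klrb1c UMIs (2.48, 0.00656). It passed neither by DESeq2 nor with cells thinned to 1500 UMIs (3.14, adjusted p = 0.212 by edgeR). Without Ncr1-positive cells Klrg1 had 0.58 (adjusted p = 0.999 by edgeR).

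The 10 leading higher genes in Klrb1c-positive cells included 7 lectin-like receptor genes of the NK gene complex. These were Klre1 (log2 fold change 1.25), Klrc1 (1.23), Klra9 (1.0), Klrc2 (0.98), Klra1 (0.94), Klra6 (0.88) and Klrk1 (0.82), the last of which encodes the activating receptor NKG2D. The others were Xcl1 (1.05), a chemokine gene, Serpina3g (1.01) and Ifng (0.76), encoding interferon-γ. Klre1 had 144 and 127 CPM in positive and 59.8 and 52.6 CPM in negative cells, and Klrk1 had 427 CPM in positive cells of both libraries and 254 and 221 CPM in negative cells. Klra9 and Ifng did not pass by DESeq2, and with cells thinned to 1500 UMIs Klre1, Klrc1, Xcl1, Klrc2 and Klrk1 passed and the other 5 did not. The 5 leading lower genes were Lyz2 (−4.15), S100a9, S100a8, H2-Ab1 and Cd74, genes of myeloid and antigen-presenting cells, and the first 3 lost their call without the cells carrying such markers.

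Of 10 terminal effector genes, 5 were higher in Klrb1c-positive cells: S1pr5 (3.15), a receptor for exit from tissues, Gzmb (0.95), Zeb2 (0.83), Tbx21 (0.63), the T-bet gene, and Id2 (0.53). The list median was 0.73, against −0.02 for all genes tested. S1pr5 had 9.03 and 5.91 CPM in positive and 1.89 and 0.407 CPM in negative cells, whereas Gzmb was lower in positive cells of replicate 1 (3.39 against 11.1 CPM) and higher in those of replicate 2 (45.4 against 19.6 CPM). Gzmb (adjusted p = 0.455) and Zeb2 (0.999) lost the edgeR call without Ncr1-positive cells, and by DESeq2 S1pr5 and Id2 were the ones of these 5 that passed. Fcer1g (0.46) was the 1 of 8 signalling genes that was higher. Ccr7 (−1.09) was the 1 of 6 memory and naive genes that was lower, and 0 of 5 type 17 genes passed. With cells thinned to 1500 UMIs, S1pr5, Gzmb and Id2 kept the edgeR call. Tbx21 (adjusted p = 0.998), Zeb2 (0.103), Fcer1g (0.598) and Ccr7 (0.0821) lost it. For at least 2 Klrb1c UMIs, Fcer1g did not pass either (0.0963). Il4 (1.01) passed by edgeR and not by DESeq2, with 1.13 CPM in positive and 2.50 CPM in negative cells of replicate 1 and 10.6 and 4.85 CPM in those of replicate 2. Without cells carrying other cell markers it had 0.94 (adjusted p = 0.127 by edgeR).

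**Figure D3:**
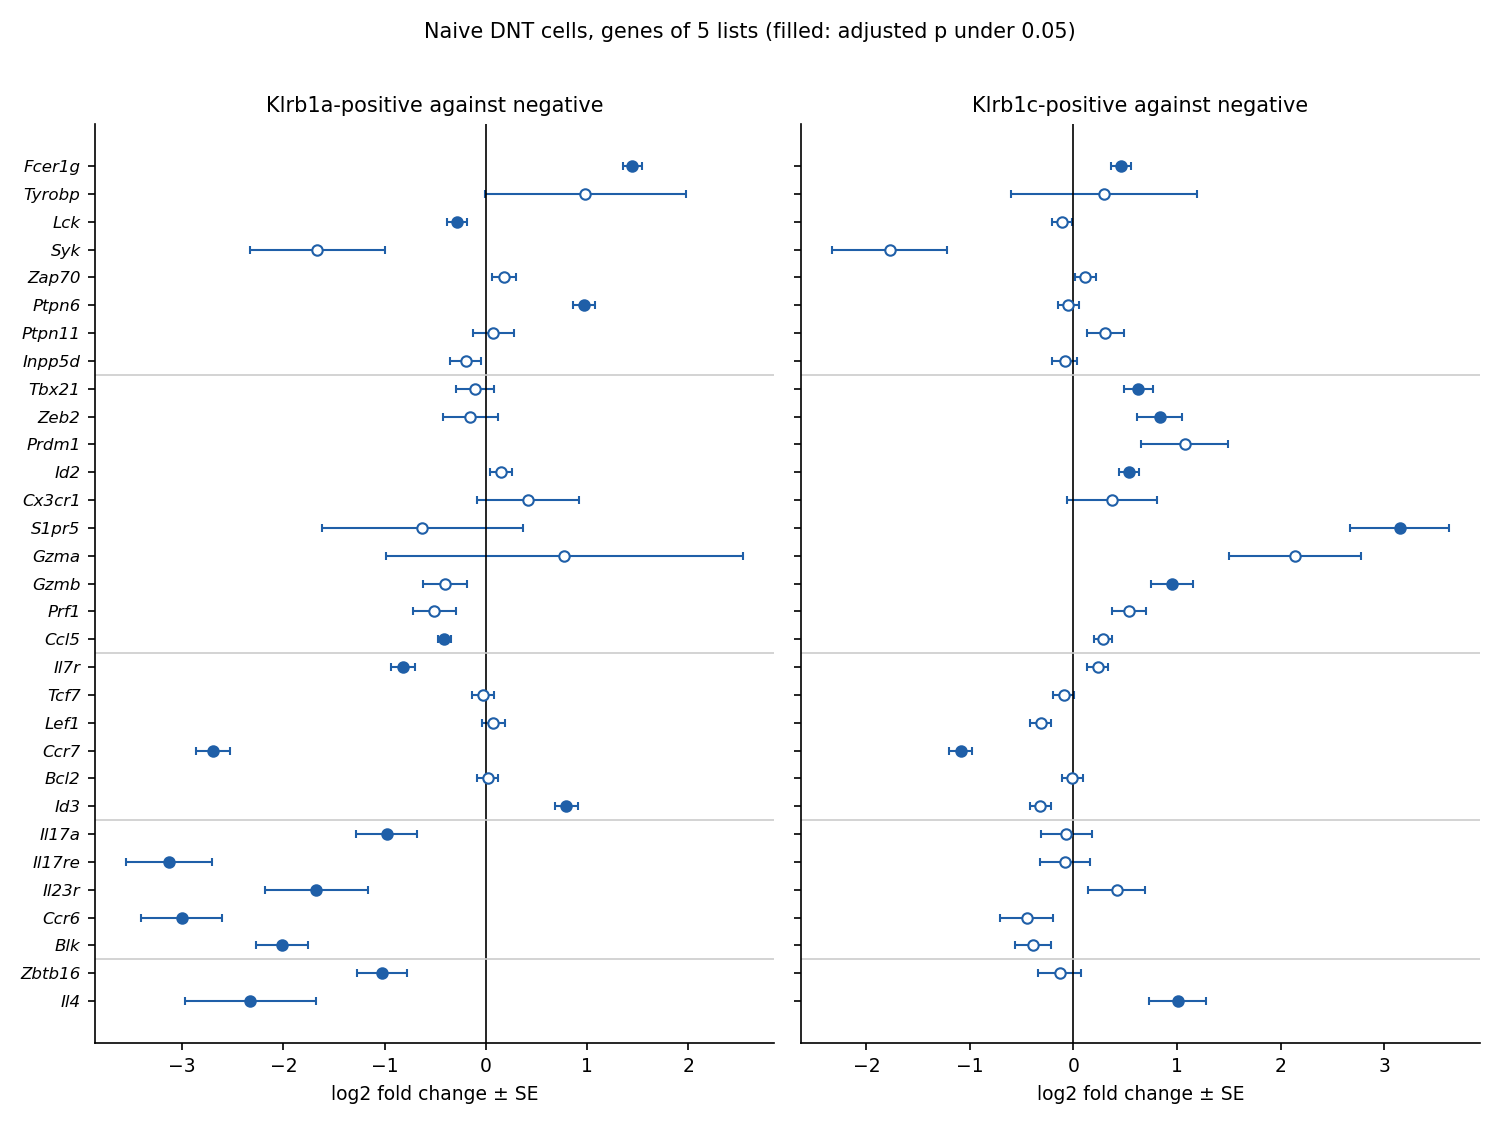
Log2 fold change of the genes of the fixed lists in Klrb1a-positive and in Klrb1c-positive naive DNT cells, each over negative cells of the same libraries, with standard errors as bars and filled points for adjusted p under 0.05 by edgeR. The type 17 genes lie below 0 for Klrb1a, with a median of −2.01, and S1pr5 reaches 3.15 for Klrb1c.

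Cells positive for Klrb1f and Klrb1b are given without a test, since naive DNT replicate 1 had too few of them, and in naive DNT replicate 2 they held Blk and Zbtb16 more often than negative cells did. Klrb1f-positive cells (228) held Blk in 32.0%, against 9.52% of negative cells, and Zbtb16, the PLZF gene, in 39.9%, against 10.2%. Klrb1b-positive cells (45) held Blk in 40.0%, against 10.1%, Zbtb16 in 48.9%, against 11%, and Ccr7 in 6.67%, against 42.1%. Median depth was 7876.5 UMIs in Klrb1f-positive and 7489 in negative cells, and 7264 in Klrb1b-positive and 7516 in negative cells. Klrb1a-positive cells of that library held Blk in 3.26%, against 10.7% of negative cells. Fcer1g was seen in 32.5% of Klrb1f-positive and 24.4% of Klrb1b-positive cells, against 42.4% and 42.2% of their negative cells. With cells thinned to 1500 UMIs the Fcer1g shares were 21.4% of Klrb1f-positive and 18.8% of Klrb1b-positive cells, against 19.8% of either negative class. With cells thinned to 3000 UMIs Zbtb16 was seen in 23.4% of Klrb1f-positive and 26.1% of Klrb1b-positive cells, against 5.30% and 5.49% of negative cells. At 1500 UMIs Zbtb16 was seen in 3 of 56 Klrb1f-positive cells (5.36%, against 3.26% of negative cells). It was then seen in 1 of 16 Klrb1b-positive cells (6.25%, against 3.27%). In naive DNT replicate 1, 41 Klrb1f-positive cells held Blk in 19.5%, against 2.32%, and Zbtb16 in 9.76%, against 1.27%. In that library 51.2% of the Klrb1f-positive cells also carried B cell, myeloid or red cell markers, against 27.2% of negative cells, and the part of these cells in the shares was not tested. The 24 Klrb1f-positive cells of activated DNT replicate 1 held Blk in 33.3%, against 3.45%, and were deeper, with a median of 33780 UMIs, against 15545.

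**Figure D4:**
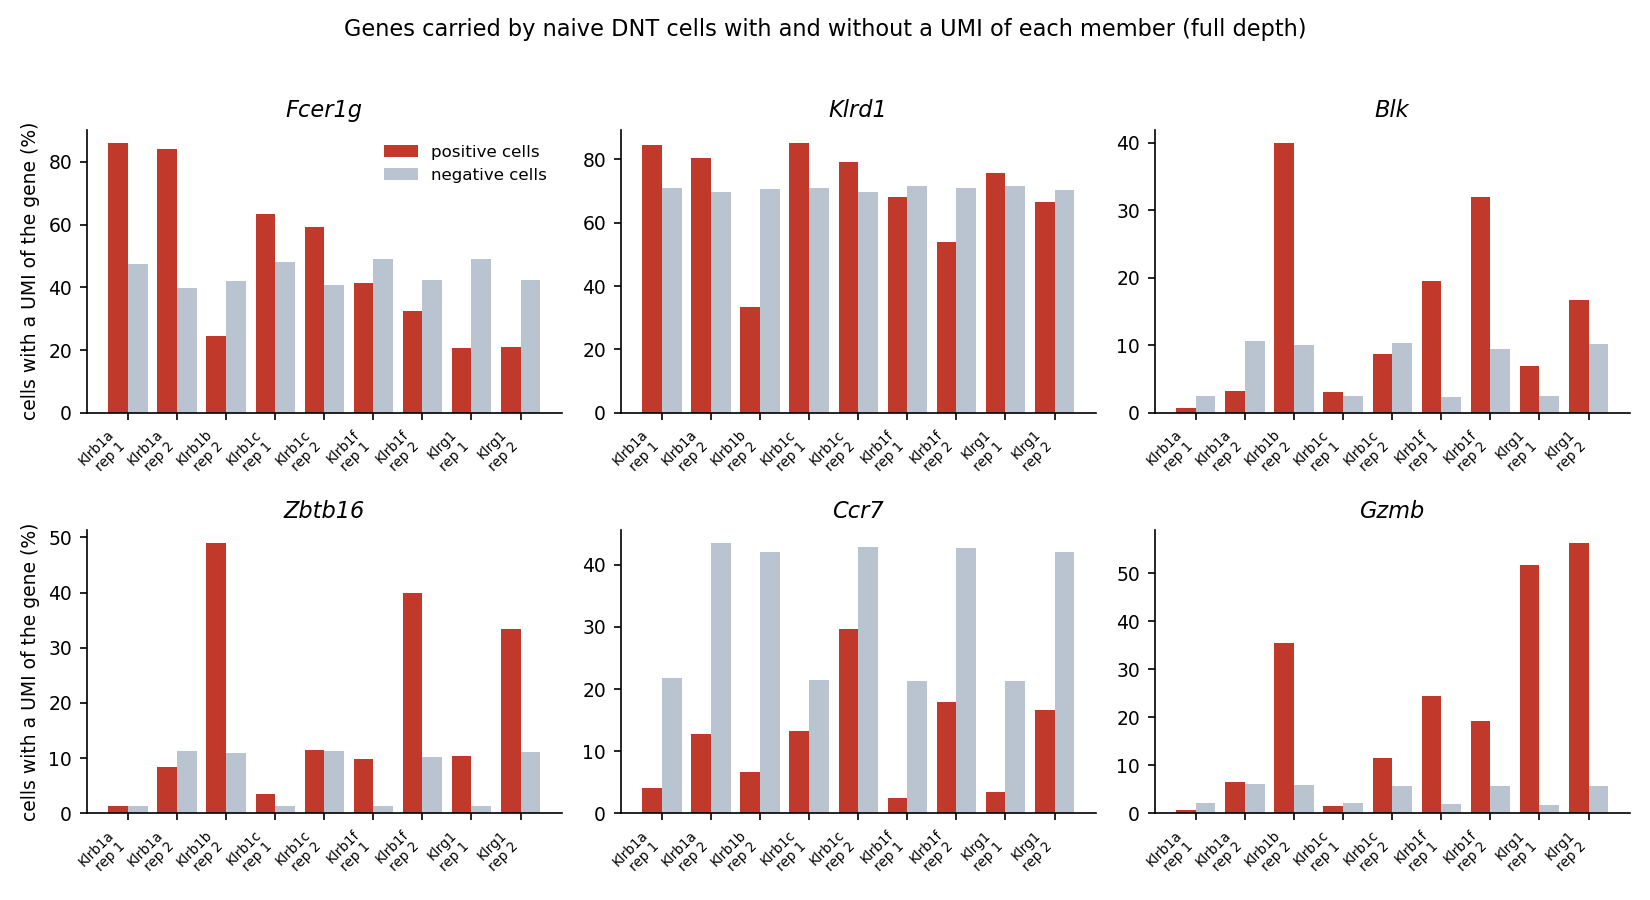
Share of member-positive and of member-negative cells that hold a UMI of Fcer1g, Klrd1, Blk, Zbtb16, Ccr7 or Gzmb, in percent at full depth, in each naive DNT library with at least 20 positive cells. Blk and Zbtb16 are seen in 32.0% and 39.9% of Klrb1f-positive cells of naive DNT replicate 2, against 9.52% and 10.2% of negative cells.

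Klrg1-positive cells were few, 29 and 48 among naive DNT cells, then 50, 47 and 42 among CD4, CD8 and TCRab cells, and the genes seen with Klrg1 are given by population. Gzma, encoding granzyme A, was seen in 34.5% and 43.8% of Klrg1-positive naive DNT cells (2.26% and 1.89% of negative cells) and in 2% of CD4, 74.5% of CD8 and 31.0% of TCRab positive cells. Foxp3, the regulatory T cell factor, was seen in 1 positive cell of each naive DNT library (3.45% and 2.08%), in 36.0% of positive CD4 cells (2.59% of negative ones), in none of the 47 of CD8, which allows a share of up to 6.38%, and in 16.7% of TCRab. Klrk1 was seen in 75.9% and 64.6% of positive naive DNT cells, 68.1% of CD8 and 23.8% of TCRab. None of the 50 positive CD4 cells held a Klrk1 UMI, where the same floor would be 6.00%. Among all cells thinned to 1500 UMIs, Klrk1 was seen in 21.5% of naive DNT cells (mean of the replicates). It was then seen in 0.160% of CD4, 2.20% of CD8 and 0.986% of TCRab cells. At that CD4 share, none of 50 does not set Klrg1-positive CD4 cells apart from the rest. The thinned shares count all cells and are not at the depth of the positive ones. All these are shares of cells with a UMI and not of cells that express the gene. Cx3cr1 was seen in 27.6% and 20.8% of positive naive DNT cells, 10.0% of CD4, 61.7% of CD8 and 14.3% of TCRab. Gzmb, encoding granzyme B, was seen in 51.7% and 56.2% of positive naive DNT cells, 18.0% of CD4, 57.4% of CD8 and 28.6% of TCRab. Among all thinned cells of naive DNT (mean), CD4, CD8 and TCRab, Gzmb was seen in 1.55%, 0.320%, 0.883% and 0.634%. Cx3cr1 was seen in 0.413%, 0.120%, 0.624% and 0.141% of these cells, and Gzma in 1.11%, 0.0800%, 1.59% and 0.728%. The difference between populations was not tested.

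**Figure D5:**
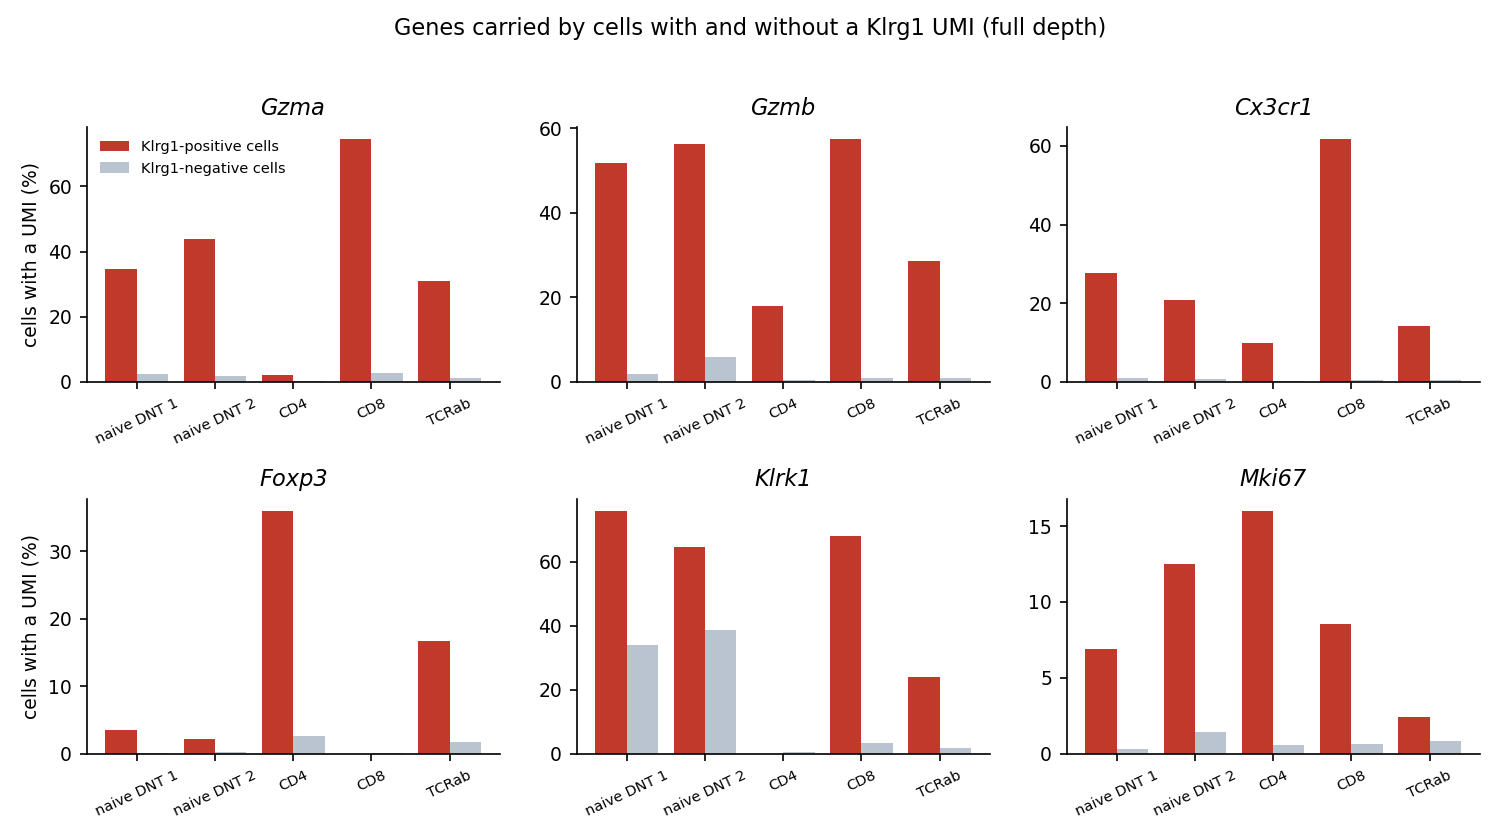
Share of Klrg1-positive and of Klrg1-negative cells, in percent at full depth, that hold a UMI of Gzma, Gzmb, Cx3cr1, Foxp3, Klrk1 or Mki67 in the naive DNT, CD4, CD8 and TCRab libraries. Among positive cells, Foxp3 is highest in CD4 at 36.0% and Gzma in CD8 at 74.5%.

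The member-positive cells held T cell receptor complex RNA. At least 1 of Cd3d, Cd3e and Cd3g was seen in 93.8% to 100% of positive cells, in the libraries with at least 10 of them, against 97.0% to 100% of negative cells. The NK cell gene Ncr1 was seen in 5 of 337 Klrb1a-positive, 3 of 45 Klrb1b-positive, 11 of 482 Klrb1c-positive, 8 of 228 Klrb1f-positive and 4 of 48 Klrg1-positive cells of naive DNT replicate 2. Without Ncr1-positive cells, that library had 11.7 CPM of Klrb1a, 1.69 of Klrb1b, 12.1 of Klrb1c, 5.28 of Klrb1f and 1.33 of Klrg1. The summed level of 9 NK cell markers was 226 and 459 CPM in activated DNT cells, 902 and 743 CPM in naive DNT cells, and 30.9, 294 and 143 CPM in CD4, CD8 and TCRab. Ncr1 itself was at 0 and 0.119 CPM in activated and 0.0580 and 1.14 CPM in naive DNT cells.

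The members were seen together in the same cells at low numbers. Klrb1a and Klrb1c shared 20 cells of naive DNT replicate 1 and 36 of replicate 2 at full depth, 2.75 (1.68 to 4.25) and 1.49 (1.04 to 2.06) times the product of their shares. Klrb1c and Klrb1f shared 7 and 36 cells, 3.53 (1.42 to 7.27) and 2.20 (1.54 to 3.05) times the product. Klrb1f and Klrg1 had the highest ratio, with 4 and 12 cells, 13.6 (3.71 to 34.9) and 7.38 (3.81 to 12.9) times the product. Klrb1a and Klrg1 shared 1 and 3 cells, 0.931 and 1.25 times the product. Deep cells hold more of every gene. With cells thinned to 1500 UMIs Klrb1a and Klrb1c shared 1 and 3 cells, 0.713 and 1.59 times the product. With 1.40 and 1.88 cells expected, no excess was detectable at that depth. At 3000 UMIs they shared 9 and 9 cells, 2.70 (1.24 to 5.13) and 1.62 (0.740 to 3.07) times the product. Klrb1c and Klrb1f shared 1 and 2 cells at 1500 UMIs and 0 and 13 at 3000 UMIs. Klrb1f and Klrg1 shared 1 and 2 cells at 1500 UMIs, 20.5 (0.520 to 114) and 11.9 (1.44 to 42.9) times the product. In activated DNT replicate 2, Klrb1a and Klrb1c shared 9 cells at full depth, 5.53 times the product. With cells thinned to 3000 UMIs they shared 0 cells there, with 0.270 expected.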

How the data were processed

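The authors deposited 7 matrices of raw counts, in UMIs, with genes as rows and cell barcodes as columns. Per the submitters' processing notes, Cell Ranger 2.1.0 and 3.0.1 and the mm10 (GRCm38) build were used, and per the file headers the kit v3 matrices were written by software version 3.0.2. No doublet removal is given in the sources used here, and no doublet caller was run. Filtering kept 28101 of 28835 barcodes, those with 200 or more genes and no more than 10% of UMIs from mitochondrial genes, and values rest on the 27514 gene IDs of all 7 matrices. CPM divides a gene's UMIs by a library's total over these genes.

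UMI sums per library were tested with edgeR 4.0.16 (filterByExpr, TMM, robust quasi-likelihood F test, Benjamini-Hochberg at 0.05), 2 activated against 2 naive DNT libraries with 2 residual degrees of freedom and a biological coefficient of variation of 0.429. The test was also run on simulated counts, and the outcome is not given here. For member-positive cells (at least 50 in both naive DNT libraries) the library was a block. Replicate numbers match the kit version, and deviations of same-numbered DNT libraries from their group means correlated with r = 0.665 across genes, so the fit with that block stands beside each call it changes. The series text calls the DNT replicates biological, but the p-values measure only the spread between these libraries. The CD4, CD8 and TCRab comparisons share the naive DNT libraries, as does activation. Sequence came from RefSeq promoter windows, searched with Biopython 1.88, and gene positions from GENCODE vM21.

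The 5 genes, the gene lists and the tests were chosen with earlier results of these data known. Named genes are the 5 members, at most 5 genes of each fixed list by size of fold change, and some others where a setting changed their call. For each positive-cell comparison they are also the 10 higher and 5 lower genes of largest fold change and 20 CPM or more where they were higher. Some genes of the type 17 and the memory and naive lists are not reported here, and the counts leave them out. Genes likest to each member are the 5 of highest Pearson r over the 7 libraries. Settings varied were the test, the filter, the block, thinning to 1500 UMIs, the UMI minimum for positive cells, libraries left out in turn and cells with other cell markers left out. DESeq2 1.42.0 and limma 3.58.1 in R 4.3.3, and pandas 2.3.3, SciPy 1.17.1, NumPy 2.4.6 and matplotlib 3.10.9 in Python 3.11.15, were also used. Intervals and floors cover counting error only.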

Additional observations from a re-analysis of the deposited data

How the results depend on the processing

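None of the 5 activation fold changes reversed in any setting. Their log2 values were −1.76 (Klrb1a), −3.11 (Klrb1c) and −1.94 (Klrb1f) by DESeq2 and −1.77, −3.12 and −1.99 with no filter on low counts, all then past the threshold. With the replicate block Klrb1b (−2.72) and Klrb1f (−2.08) passed, the members called were 3 in place of 1, and the genes called 4894 in place of 1280. Klrg1 no longer passed with thinned cells (−3.83). Leaving out 1 library gave −2.77 to −1.17 for Klrb1a, −5.18 to −1.64 for Klrb1b, −4.91 to −2.33 for Klrb1c, −2.75 to −1.47 for Klrb1f and −5.77 to −4.28 for Klrg1, with 0 to 4 members and 547 to 2074 genes called. A lone library left in a group was assumed to vary like the other group. DESeq2 called 4 members and 2390 genes, no filter 4 and 2188, thinned cells 0 and 300, and leaving out the cell highest in Klrb1c, chosen after seeing the data, called 2 members (Klrb1c at −3.60). In naive DNT cells against CD4, CD8 and TCRab, 529, 462 and 411 genes were higher by the 2-fold rule, 288, 255 and 207 at 3-fold, and 222, 192 and 170 at 20 CPM. The lower ones were 121, 50 and 109, then 59, 29 and 49 at 3-fold and 54, 21 and 48 at 20 CPM. Members higher were 2 by the 2-fold rule and 0 at 20 CPM, and the 1 member lower than in CD4 was 0 in both settings. Klrb1a-positive cells differed in 1399 genes, in 457 by DESeq2, in 0 with no replicate block, in 799 for at least 2 UMIs and in 173 with thinned cells. Klrb1c-positive cells differed in 182 genes, in 38 by DESeq2, in 0 with no replicate block, in 88 for at least 2 UMIs, in 26 with thinned cells and in 113 without cells carrying other cell markers. The cause of these changes was not tested. Of the values with no test, 26 of 90 log2 ratios, 30 of 70 shares of cells and 1 of 32 co-detection ratios moved beyond their error. Depth limits the rare members: Klrb1b and Klrb1f had no thinned activation value, and Klrg1 rested on 2 UMIs in each activated library.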

Other observations

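Across the 7 libraries, the genes whose levels were most like each member were listed by Pearson's r of log2(CPM + 1) over 9557 genes, as a description with no test, since libraries share cell types, kits and depths. Klrb1a was closest to Anxa2 (0.995), followed by Lyn, Tnfrsf23, Gem and Rbpms. Klrb1c was closest to Gas7 (0.994), then Qrfp, Cuedc1, Abhd2 and Il10ra. Klrb1f was closest to Trp53inp2 (0.993), then Hdac9, Cxcl10, Rnf44 and Tnfaip3. Klrb1b was closest to Spock2, Arap3, Bambi, Rlim and Atp2b4, and Klrg1 to S1pr4 (0.998), then Gm37065, Platr17, 2810001G20Rik and Pdk1. Between 25 genes (Klrb1f) and 139 genes (Klrb1b) reached an r of 0.95. Klrb1a and Klrb1c had an r of 0.927 with each other.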
